A study of Mus musculus with 4 samples.

Results

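The genes described here are 68 mouse genes whose RNA was lowest in erythroblasts carrying GATA-1 V205M. They were chosen by the levels themselves. A gene was kept if it had a level in each of the 4 groups of the study, a level of 50 or more scaled reads in at least 1 of them, a V205M level at least 2-fold below that in every other group, and a level with wild-type GATA-1 less than 2-fold below the control. A scaled read is a sequencing read divided by a size factor of its library. Of 2982 genes in the deposited tables, 1157 had all 4 levels and 1124 of these reached 50 scaled reads. The fold limits left 81 genes, the floor on the wild-type level removed 6, and 7 more were set aside by name because they belong to globin, solute carrier and other sets (Hbb-b1, Slc25a42, Alad, Ccnd3, Plek, Srgn and Tal1). The rule used every comparison with V205M, so the low V205M values below are a description and are not tested.

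RNA-seq was done on G1E, a mouse erythroblast line derived from embryonic stem cells that lack GATA-1, in 4 groups of 1 sample each. The groups are the control, called G1E, and cells that carry GATA-1 as wild type (WT), as the V205M form or as a form labelled 2RA. All 4, the control included, carry the label of a β-estradiol induction (written β-estrodiol there), and all share the G1E background. The labels do not give how the GATA-1 forms were introduced, how long the induction lasted, whether a line is 1 clone or what 2RA changes. Since each group is 1 sample, no difference below has a replicate check. In such bulk RNA, fewer cells that express a gene and less RNA per cell cannot be told apart.

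GATA-1 is a transcription factor with zinc fingers that binds DNA at sites with the core GATA, and it both raises and lowers genes as red cells, platelets and mast cells mature from blood progenitors. Many of these responses need its cofactor FOG-1, encoded by Zfpm1, which binds the amino-terminal finger. The V205M change lies in that finger and is known to weaken the contact with FOG-1 while DNA binding is kept. Gata1 RNA itself stood at 153 scaled reads in G1E, 2652 in WT, 1421 in 2RA and 613 in V205M, so V205M held more Gata1 RNA than the control and less than the other forms.

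Since GATA-1 binds at GATA sites, the stretches before the start that hold the letters AGATAA or TGATAA on either strand are shown for members of the set. Promoter windows of 300 bases (250 before to 50 after the start, RefSeq, GRCm38.p6) were found for 50 of the 68 genes. At the 5′ end of the gene, 6 members held such a match wholly before the start: B9d2 (chr7:25680559-25680678, plus strand), Creg1 (chr1:165763508-165763627, plus strand), Hemgn (chr4:46404184-46404303, minus strand), Pafah2 (chr4:134396200-134396319, plus strand), Rhd (chr4:134864416-134864535, plus strand) and Steap3 (chr1:120271081-120271200, minus strand). A short stretch of Rhag (chr17:40811106-40811135, plus strand) is added, where the match lies before 1 start and after an earlier one. Capitals mark the match, and each sequence reads 5′ to 3′ on the strand of the gene.
B9d2: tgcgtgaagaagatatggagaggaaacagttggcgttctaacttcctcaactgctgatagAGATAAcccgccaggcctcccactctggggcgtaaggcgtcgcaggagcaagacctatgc
Creg1: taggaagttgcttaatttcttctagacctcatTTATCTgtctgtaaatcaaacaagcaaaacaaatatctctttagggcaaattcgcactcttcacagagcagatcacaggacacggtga
Hemgn: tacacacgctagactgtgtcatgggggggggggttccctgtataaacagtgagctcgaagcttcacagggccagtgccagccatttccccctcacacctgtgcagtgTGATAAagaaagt
Pafah2: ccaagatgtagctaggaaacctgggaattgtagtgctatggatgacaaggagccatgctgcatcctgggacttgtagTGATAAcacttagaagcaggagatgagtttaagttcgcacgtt
Rhag: agtcctctgctcTTATCAacactatacagc
Rhd: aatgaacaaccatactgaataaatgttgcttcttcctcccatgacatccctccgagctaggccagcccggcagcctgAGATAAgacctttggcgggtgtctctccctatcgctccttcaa
Steap3: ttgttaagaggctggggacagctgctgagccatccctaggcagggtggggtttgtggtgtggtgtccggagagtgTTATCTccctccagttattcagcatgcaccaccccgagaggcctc
The match began 13 bases before the start in Hemgn, 43 in Rhd, 43 in Pafah2, 45 in Steap3, 161 in B9d2 and 218 in Creg1. AGATAA or TGATAA stood in 18.3% of the 82 windows of members, in 18.6% of all 32851 windows and in 12.8% of the 2912 windows of genes in the deposited tables. CACCC, the core of sites for erythroid Krüppel-like factors, stood on either strand in 75.6% of member windows, 57.5% of all windows and 63.5% of the windows of genes in the tables. AGGAAG, a form of the ETS factor site, stood in 39.0% of member windows, 35.4% of all and 32.5% of those in the tables. TCACNCCAC, a form of the SREBP site, was found in 2 of the 82, and CTG with 7 or 8 bases before AGATAA, the spacing of a joint SCL and GATA site, in 1 and 0. The windows with CTG before AGATAA are also counted under AGATAA. These are matches of letters only, and several windows can belong to 1 gene.

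Each of the authors' 6 tables sets 1 group against another and holds no gene other than those whose adjusted p was under 0.01 and whose levels differed over 2-fold. The number of tested genes was inferred from the ratios of adjusted p to p as 12931. It was taken to be the same for all 6 tables. Every deposited level was solved as whole reads over size factors. WT and 2RA came from 1 count column each, and G1E and V205M from 2 each. Over the genes in the tables the reads per column ran from 276064 in the second column of G1E to 2178397 in WT. Of the defining markers of megakaryocytes (9), neutrophils and macrophages (7), lymphocytes (3) and endothelial and stromal cells (4), none had all 4 levels. The erythroid markers with all 4 levels (7 of 8) summed to 3334 scaled reads in G1E, 60987 in WT, 2906 in 2RA and 788 in V205M, and the mast cell markers (5 of 9) to 5448, 183, 2398 and 2433. Rhag is counted among these erythroid markers, and the part of the marker difference in the erythroid genes of the set was not tested. The mast cell markers did not move together between G1E and V205M. Cpa3 (2795 scaled reads in G1E and 14.6 in V205M) and Kit (2429 and 1440) were lower in V205M. Tpsab1 (55.1 and 474), Ms4a2 (140 and 383) and Hdc (29.5 and 121) were higher in V205M.

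In V205M the 68 genes stood at 0.931 to 652 scaled reads, with a median of 33.5. The medians were 114 in G1E, 138 in WT and 130.4 in 2RA. The ratio of the lowest other group to V205M ran from 2.01 for Rhag to 24.5 for Col18a1, with a median of 2.80. It was 3-fold or more in 26 genes, 5-fold or more in 9 and 10-fold or more in 3, which are Col18a1, Agpat3 and Rab4a. The next lowest group was G1E for 29 genes, WT for 21 and 2RA for 18. The table of V205M against G1E held 60 of the 68 as lower in V205M (3.32% of all tested genes were), that of V205M against WT held 67 (5.65%), and that of 2RA against V205M held 63 as higher in 2RA (3.6%). All of these counts follow from the rule. In all 3 tables stood 59 genes. The median difference in log2(scaled reads + 1) was -1.71 against G1E, -2.04 against WT and -1.99 against 2RA, beside 0.21, -0.41 and -0.21 over all 1157 genes with 4 levels. The same fold and level limits and name drops, with no floor on WT, gave 74 genes lowest in V205M, 197 lowest in G1E, 145 lowest in WT and 63 lowest in 2RA.

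**Figure D1:**
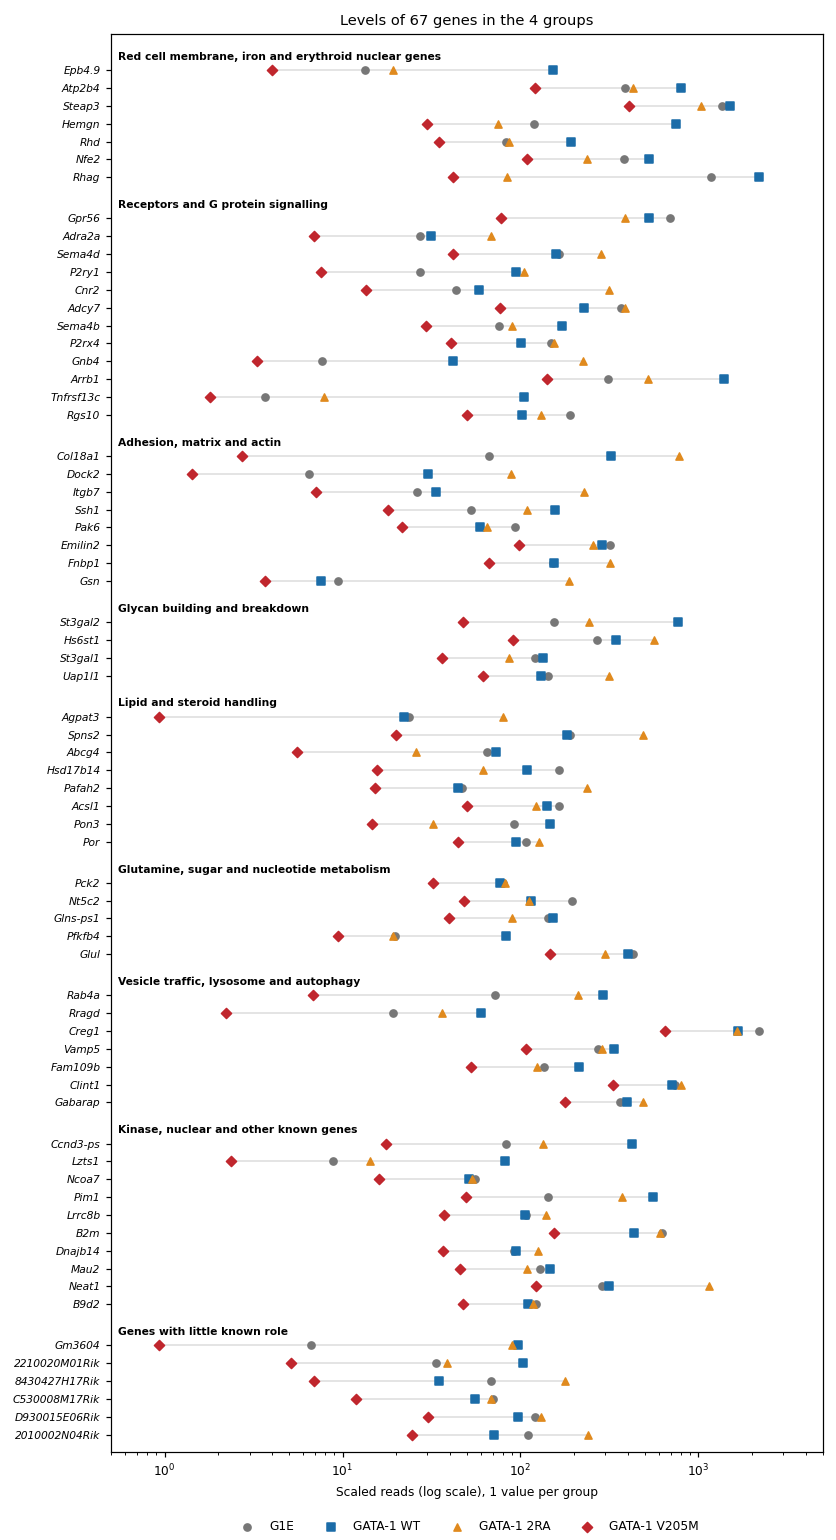
Levels of 67 of the 68 genes in the 4 groups in scaled reads on a log axis, 1 value per group, with genes ordered by role and by the distance to V205M. In every row the red diamond of V205M is leftmost, as the rule requires, while the order of the other 3 groups differs from gene to gene.

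**Figure D2:**
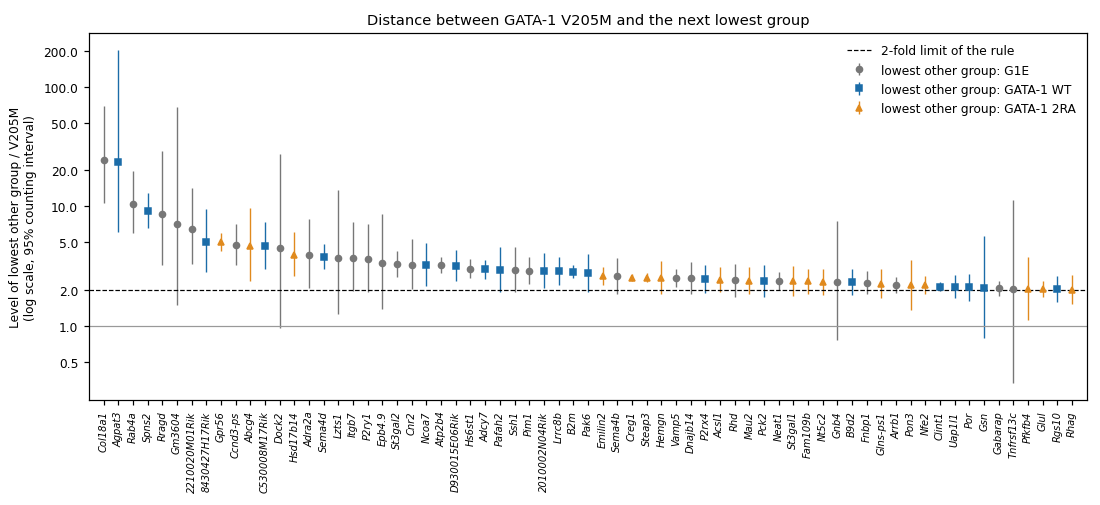
Ratio of the lowest other group to V205M for 67 of the 68 genes on a log axis, with 95% counting intervals from the recovered reads and the symbol giving the lowest other group. The ratio falls from 24.5 for Col18a1 to 2.01 for Rhag, and the widest intervals belong to genes with few reads in V205M, such as Tnfrsf13c and Agpat3.

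Scaled reads are not divided by gene length, so the level of 1 gene is not compared with that of another. The marker sums and the medians do join levels of different genes. The sums weigh most the genes with most reads, and both are set side by side only between groups. Counting intervals use the recovered reads and leave out any spread between cultures. They show the counting error of each ratio at the authors' size factors and leave out the choice of scaling. They are no test, since the rule required ratios of 2-fold or more. The interval of the ratio of the lowest other group to V205M still reached below 1 for Dock2, Gnb4, Gsn and Tnfrsf13c. V205M had 10 or fewer reads over both columns for 10 genes, and 3 or fewer for Agpat3, Dock2 and Gm3604. The lowest count was 1 in every count column, with 31 to 57 genes at it. A count of 1 may therefore be a floor and not a read that was seen. Agpat3 and Gm3604 stand at it in both V205M columns. Read counts and intervals of genes with few reads carry this doubt.

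The red cell genes of the set encode parts of the membrane, iron uptake and nuclear factors, and all 7 were highest in WT, although Steap3 and Nfe2 were highest in the control when levels were rescaled by TMM factors (trimmed mean of M-values) or by totals over the genes with 4 levels. Rhag, the Rh-associated glycoprotein that carries the Rh proteins to the surface, had 1180.4 scaled reads in G1E, 2197 in WT, 84.3 in 2RA and 41.9 in V205M. Rhd, the Rh polypeptide itself, had 83.2 scaled reads in G1E, 193 in WT, 85.7 in 2RA and 34.6 in V205M. Both 2RA and V205M were thus far below WT for Rhag, where 2RA was just over the limit of the rule, and for Rhd 2RA was close to the control. Epb4.9, dematin, which bundles actin in the membrane skeleton, had 13.4 scaled reads in G1E, 152 in WT, 19.3 in 2RA and 4.01 in V205M, with 7 and 2 reads in the V205M columns. Atp2b4, a calcium pump of the plasma membrane, had 389 scaled reads in G1E, 795 in WT, 429 in 2RA and 121 in V205M. In both genes 2RA was close to the control, and for Epb4.9 WT stood further from the rest. Steap3, the reductase that frees iron taken up with transferrin, had 1352 scaled reads in G1E, 1509.7 in WT, 1032 in 2RA and 408 in V205M. It differed little among the 3 groups other than V205M, and the control was 3.31-fold (95% counting interval 3.05 to 3.604) above V205M.

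Hemgn, hemogen, a nuclear protein of blood progenitors and erythroblasts, had 119 scaled reads in G1E, 744 in WT, 75.01 in 2RA and 29.8 in V205M. WT was 6.25-fold (95% counting interval 5.18 to 7.57) above the control, and 2RA and V205M were both below the control. Nfe2, the large subunit of the NF-E2 factor that acts at globin and platelet genes, had 381 scaled reads in G1E, 528 in WT, 238 in 2RA and 109 in V205M. Here the order was WT, G1E, 2RA, V205M. In GRCm38, Rhag lies on chromosome 17 at 40811099 to 40844094, Rhd on chromosome 4 at 134864536 to 134896172, Hemgn on chromosome 4 at 46393989 to 46404183, Steap3 on chromosome 1 at 120226414 to 120271081 and Nfe2 on chromosome 15 at 103248212 to 103258403. The authors' table of 2RA against WT held 5 of the 7 as lower in 2RA (Rhag, Rhd, Epb4.9, Hemgn and Nfe2), beside 4.04% of all tested genes and 31.2% of genes with 4 levels. That of WT against G1E held 4 as higher in WT (Rhd, Epb4.9, Hemgn and Atp2b4), beside 8.17% and 48.4%. V205M in its 2 count columns stood at 37.8 and 46.1 for Rhag and at 33.5 and 26.04 for Hemgn.

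Receptors and the proteins that carry their signals made up 12 genes, 7 of them highest in 2RA (5 under TMM factors or totals). P2ry1, the ADP receptor of platelets, had 27.3 scaled reads in G1E, 94.5 in WT, 104 in 2RA and 7.59 in V205M. Cnr2, the cannabinoid receptor of blood cells, had 43.6 scaled reads in G1E, 58.6 in WT, 314 in 2RA and 13.5 in V205M. Adra2a, an adrenergic receptor that also acts on platelets, had 27.2 scaled reads in G1E, 31.5 in WT, 68.6 in 2RA and 6.94 in V205M. For all 3 the control lay next above V205M and 2RA was highest. Gnb4, a G protein beta subunit, had 7.62 scaled reads in G1E, 41.6 in WT, 224 in 2RA and 3.29 in V205M, a range of 29.3-fold among the groups other than V205M and the widest of the set. Its V205M level rests on 7 reads, and the control was 2.32-fold (95% counting interval 0.757 to 7.49) above it. Adcy7, an adenylyl cyclase, had 368 scaled reads in G1E, 228 in WT, 387 in 2RA and 76.96 in V205M.

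Gpr56, an adhesion receptor of blood stem and progenitor cells, ran in another order, with 691 scaled reads in G1E, 530.3 in WT, 387 in 2RA and 77.2 in V205M. It was highest in the control, and even 2RA was 5.01-fold (95% counting interval 4.21 to 5.997) above V205M. Arrb1, an arrestin that shuts off and redirects receptor signals, had 311 scaled reads in G1E, 1398 in WT, 519 in 2RA and 141 in V205M, with WT highest. Tnfrsf13c, the BAFF receptor best known from B cells, was high in WT alone, with 3.65 scaled reads in G1E, 105 in WT, 7.86 in 2RA and 1.79 in V205M. V205M had 3 and 1 reads for it, and the control was 2.04-fold (95% counting interval 0.332 to 11.3) above it. P2rx4, an ATP-gated channel, had 149, 101, 155 and 40.9 scaled reads in G1E, WT, 2RA and V205M. Rgs10, which speeds GTP breakdown by G proteins, had 189.7, 101, 130.0 and 50.2. P2rx4 was highest in 2RA and Rgs10 in the control. Sema4d, a semaphorin and so a membrane ligand of plexins, had 164, 159, 284 and 41.8 in the same order of groups, with 2RA highest. Sema4b, of the same family, had 75.9, 170.1, 89.3 and 29.3, with WT highest.

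Among 8 genes of adhesion, matrix and actin, 5 were highest in 2RA, as they were under TMM factors and totals. Col18a1, the collagen chain from which endostatin is cut, had 66.6 scaled reads in G1E, 321 in WT, 777 in 2RA and 2.72 in V205M. This was the widest distance of the set, with the control 24.5-fold (95% counting interval 10.7 to 68.8) and 2RA 286-fold (95% counting interval 129 to 783) above V205M, which had 4 and 2 reads. Col18a1 lies on chromosome 10 at 77052178 to 77166530 and overlaps Slc19a1 on the opposite strand, which had 269 scaled reads in G1E and 83.1 in WT, the reverse of the order seen for Col18a1. Itgb7, the integrin beta 7 chain of homing lymphocytes and mast cells, had 26.2 scaled reads in G1E, 33.4 in WT, 228 in 2RA and 7.09 in V205M. Gsn, gelsolin, which severs actin filaments, had 9.45 scaled reads in G1E, 7.56 in WT, 187 in 2RA and 3.65 in V205M, so that 2RA stood apart from 3 groups with 10 or fewer scaled reads. Dock2, an activator of Rac in blood cells, had 6.45 scaled reads in G1E, 30.2 in WT, 87.9 in 2RA and 1.43 in V205M, and the control was 4.51-fold (95% counting interval 0.952 to 27.3) above V205M. Of the others, Ssh1, a phosphatase that activates cofilin, had 52.5, 156, 109 and 17.9 scaled reads in the order G1E, WT, 2RA and V205M. Fnbp1, which bends membranes next to actin, had 152, 154, 319 and 66.1, with 2RA highest. The kinase Pak6 had 92.8, 59.2, 65.01 and 21.5 and was highest in the control. Emilin2, a glycoprotein of elastic matrix, had 319.9, 288, 257 and 97.8 and differed little outside V205M.

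Genes that build or trim glycans numbered 5, and none was highest in the control (1 was under TMM factors or totals). St3gal2 and St3gal1 add sialic acid to galactose on proteins and lipids. St3gal2 had 155 scaled reads in G1E, 768 in WT, 244 in 2RA and 47.3 in V205M, and WT was 4.95-fold (95% counting interval 4.23 to 5.82) above the control. St3gal1 had 121 scaled reads in G1E, 134 in WT, 85.7 in 2RA and 36.4 in V205M, with a much narrower range outside V205M. Hs6st1, which sulfates heparan chains, had 270.0 scaled reads in G1E, 345 in WT, 563 in 2RA and 90.2 in V205M. Hs6st1 was highest in 2RA, and Uap1l1, related to the enzyme that makes UDP-N-acetylglucosamine, was too, at 313.6 scaled reads against 61.6 in V205M.

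Lipid and steroid genes numbered 8. Spns2, the exporter of sphingosine 1-phosphate, had 189.5 scaled reads in G1E, 182 in WT, 485 in 2RA and 19.9 in V205M, and WT, its lowest other group, was 9.15-fold (95% counting interval 6.62 to 12.9) above V205M. Agpat3, which attaches a fatty acid in phospholipid synthesis, had 23.6 scaled reads in G1E, 22.04 in WT, 80.02 in 2RA and 0.931 in V205M. V205M stood at the lowest count, 1 in each column, which may be a floor. WT was 23.7-fold (95% counting interval 6.08 to 203) above it. Pafah2, which breaks down platelet-activating factor and oxidised phospholipids, had 47.1 scaled reads in G1E, 44.7 in WT, 236 in 2RA and 15.2 in V205M. These 3 shared nearly equal levels in G1E and WT and a higher one in 2RA. Abcg4, a sterol exporter, had 64.7 scaled reads in G1E, 73.1 in WT, 25.7 in 2RA and 5.51 in V205M. Hsd17b14, a steroid dehydrogenase, had 164 scaled reads in G1E, 109 in WT, 61.4 in 2RA and 15.6 in V205M. Pon3, a lactonase of lipoproteins, had 91.97 scaled reads in G1E, 147 in WT, 32.1 in 2RA and 14.7 in V205M. In these 3 genes 2RA was next to V205M. Acsl1, which activates long-chain fatty acids, had 165, 142, 122 and 50.04 in the order G1E, WT, 2RA and V205M. Por, which passes electrons to cytochrome P450 enzymes, had 107, 93.8, 127 and 44.8. Both were within 1.5-fold among the groups other than V205M.

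Of 5 genes of small-molecule metabolism, 4 were within 2-fold among G1E, WT and 2RA. Glul, glutamine synthetase, had 431 scaled reads in G1E, 403 in WT, 299 in 2RA and 147 in V205M. The table also holds Glns-ps1, a pseudogene of Glul, with 142, 152, 89.3 and 39.6 scaled reads in the same order, and the split of reads between the pair is uncertain. Pck2, which makes phosphoenolpyruvate in mitochondria, had 79.8 scaled reads in G1E, 76.8 in WT, 82.2 in 2RA and 32.4 in V205M, the narrowest range of the set outside V205M at 1.07-fold. Nt5c2, which dephosphorylates purine nucleotides, had 195, 115, 112 and 48.2 and was highest in the control. Pfkfb4, which sets the level of fructose 2,6-bisphosphate, a switch of glycolysis, was the exception, with 19.6 scaled reads in G1E, 82.5 in WT, 19.3 in 2RA and 9.45 in V205M and WT 4.2-fold (95% counting interval 2.601 to 6.95) above the control.

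Vesicle, lysosome and autophagy genes numbered 7. Rab4a, a GTPase of early recycling endosomes, had 71.7 scaled reads in G1E, 291 in WT, 209 in 2RA and 6.802 in V205M, and the control was 10.5-fold (95% counting interval 6.04 to 19.7) above V205M. Rragd, a Rag GTPase that brings mTORC1 to the lysosome, had 19.1 scaled reads in G1E, 59.8 in WT, 36.4 in 2RA and 2.22 in V205M, with 4 and 1 reads in V205M and the control 8.61-fold (95% counting interval 3.21 to 28.9) above it. These 2 showed the same order, WT, 2RA, G1E and V205M. Creg1, a secreted glycoprotein found in lysosomes, had 2199.7 scaled reads in G1E, 1673 in WT, 1652 in 2RA and 652 in V205M. Clint1, an adaptor of clathrin vesicles, had 737 scaled reads in G1E, 707 in WT, 803 in 2RA and 331 in V205M. Gabarap, which joins growing autophagosomes, had 365 scaled reads in G1E, 397 in WT, 489 in 2RA and 177 in V205M. In contrast with Rab4a, these 3 were within 1.5-fold among the groups other than V205M under the authors' scaling. The counting interval of the ratio to V205M was narrow, for Creg1 2.53-fold (95% counting interval 2.37 to 2.71). Under TMM factors the log2 difference of the lowest other group from V205M was 0.90 for Creg1, 0.64 for Clint1 and 0.71 for Gabarap. These values are below the 2-fold limit of the rule. Vamp5, a SNARE protein, had 271, 334, 286 and 108 in the order G1E, WT, 2RA and V205M. Fam109b, which works in endosome recycling, had 135, 214, 124 and 52.8.

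Pim1, a survival kinase induced by cytokine receptors through STAT5, had 142 scaled reads in G1E, 556 in WT, 373 in 2RA and 49.2 in V205M. Ccnd3-ps, a pseudogene of the cyclin gene Ccnd3, had 82.5 scaled reads in G1E, 421 in WT, 134 in 2RA and 17.5 in V205M. Ccnd3 itself was set aside by name at 347, 1705, 440.1 and 64.3 scaled reads in G1E, WT, 2RA and V205M, and reads of the pair may have been split between them. B2m, the light chain of MHC class I, had 627 scaled reads in G1E, 437 in WT, 605 in 2RA and 154 in V205M. Neat1, the long noncoding RNA that builds paraspeckles, had 288 scaled reads in G1E, 312 in WT, 1145 in 2RA and 122 in V205M, and was thus highest in 2RA. Lzts1, a protein linked to mitotic control, had 8.79 scaled reads in G1E, 81.9 in WT, 14.3 in 2RA and 2.36 in V205M and was highest in WT. The other 5 known genes, the cohesin loader Mau2, the nuclear receptor coactivator Ncoa7, the ciliary gene B9d2, the chaperone Dnajb14 and the anion channel subunit Lrrc8b, were each within 1.5-fold among G1E, WT and 2RA. Mau2, for example, had 129, 146, 109 and 45.96 scaled reads in the order G1E, WT, 2RA and V205M.

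For 6 genes no role is given here. Gm3604 had 6.65 scaled reads in G1E, 96.4 in WT, 90.02 in 2RA and 0.931 in V205M. V205M stood at the lowest count, 1 in each column, which may be a floor. The control was 7.15-fold (95% counting interval 1.504 to 68.03) above it. 2210020M01Rik (Smim5) had 33.6 scaled reads in G1E, 103 in WT, 38.6 in 2RA and 5.15 in V205M. 8430427H17Rik (Nol4l) had 67.9 scaled reads in G1E, 34.6 in WT, 178 in 2RA and 6.87 in V205M. The first 2 were highest in WT and the last in 2RA. C530008M17Rik (Cracd) had 69.8, 55.4, 68.6 and 11.96 in the order G1E, WT, 2RA and V205M. D930015E06Rik (Tmem131l) had 120.2, 96.4, 131 and 30.4, and both of these were within 1.5-fold outside V205M. 2010002N04Rik (Smim3) had 109.8, 70.5, 239 and 24.4, with 2RA highest. Current names in brackets are those that RefSeq pairs with the older symbols.

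Among G1E, WT and 2RA, the rule compared WT with G1E directly, through the floor, which bars a WT level 2-fold or more below the control. It also used the levels of all these groups, through the need for a level in each, the level limit and the distance to V205M. Tnfrsf13c, Epb4.9 and Lzts1 met the level limit through WT alone, and Gsn and Gnb4 through 2RA alone. The differences, shares and medians below are thus shaped by the choice of genes. They describe how the genes lowest in V205M differ among the other groups and are not an independent test of whether these genes move together. In the authors' deposited tables, WT against G1E held 20 of the 68 as higher in WT (29.4%, beside 8.17% of all tested genes and 48.4% of the 1157 genes with 4 levels) and 0 as lower, which the floor fixes. The largest differences in log2(scaled reads + 1) were those of Tnfrsf13c (4.51), Gm3604 (3.67), Epb4.9 (3.41), Lzts1 (3.08) and Hemgn (2.63). At the other end stood 8430427H17Rik (-0.95), Rgs10 (-0.90), Nt5c2 (-0.75) and Adcy7 (-0.69), none of which was in the table. The median difference over the 68 was 0.16, beside 0.86 over the 1157.

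2RA against G1E held 17 as higher in 2RA (beside 4.86% of all tested genes and 37.6% of those with 4 levels) and 3 as lower (4.41%, beside 2.61% and 18.5%). The 3 lower were Rhag (-3.79), Pon3 (-1.49) and Hsd17b14 (-1.41). Among the 17 higher, the largest differences were those of Gnb4 (4.70), Gsn (4.17) and Dock2 (3.58), whose differences of WT from G1E were 2.30, -0.29 and 2.07. These comparisons share the control sample.

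2RA against WT held 11 as higher in 2RA (16.2%, beside 3.33% of all tested genes and 26.8% of those with 4 levels) and 12 as lower (17.6%, beside 4.04% and 31.2%). The 11 were Gsn (4.46), Itgb7 (2.74), Cnr2, Gnb4, Pafah2, 8430427H17Rik, Neat1, 2010002N04Rik, Spns2, Col18a1 and Uap1l1. The 12 were Rhag (-4.69), Tnfrsf13c (-3.58), Hemgn (-3.29), Epb4.9, Lzts1, Pon3, Pfkfb4, St3gal2, Ccnd3-ps, Arrb1, Rhd and Nfe2. Apart from the barred direction, the share in each of the 3 tables was above that of all tested genes and below that of genes with 4 levels, which had to be in some table. Under TMM factors, which moved the median of all genes with 4 levels by -0.66 (log2) for WT against G1E, -0.41 for 2RA against G1E and 0.24 for 2RA against WT, a 2-fold change gave 15 higher and 11 lower, 12 and 9, and 17 and 12. The share of all genes with 4 levels that changed 2-fold under TMM factors was not counted. The member counts under TMM factors therefore do not show whether the set differs from those genes. No direction of the whole set against the control is read from these counts.

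**Figure D3:**
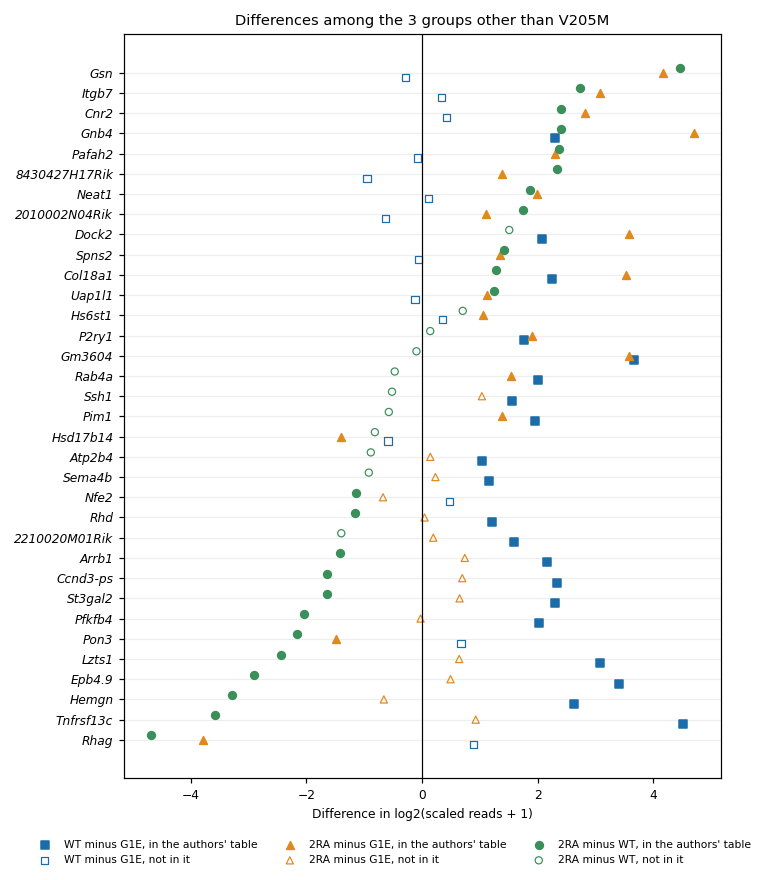
Differences in log2(scaled reads + 1) among G1E, WT and 2RA for the 34 genes in at least 1 of the 3 tables without V205M, with filled symbols for genes in the authors' table of that pair and open symbols for the rest. From bottom to top, 2RA minus WT runs from -4.69 for Rhag to 4.46 for Gsn, with 12 filled circles on the left and 11 on the right.

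The other 34 genes were in none of the 3 tables. Over all 68, the range among G1E, WT and 2RA under the authors' scaling was under 2-fold in 29 genes and under 1.5-fold in 19. At that scaling these 29 thus had 1 low group beside 3 of similar level. TMM factors shift WT against G1E by -0.655 (log2) and 2RA against G1E by -0.413, and ranges under them were not counted. The ranges given for single genes use the authors' scaling too. The highest group was G1E for 13 genes, WT for 27 and 2RA for 28, and under TMM factors for 27, 19 and 22. V205M was lowest in all 68 by the rule. It could not lose that rank under TMM factors or totals. Their largest shift of V205M against another group was that against WT, 0.455 and 0.429 (log2), both under the 2-fold limit. Of the genes highest in WT, 16 had G1E as the lowest of the other 3 groups and 11 had 2RA. Of those highest in 2RA, 13 had G1E and 15 had WT.

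Gene lists of the lineages and pathways held few of the 68. The erythroid surface and membrane list gave 3 (Rhag, Rhd and Epb4.9) of 24 genes, 15 of which had all 4 levels. In the authors' tables this list had 2 genes higher and 6 lower in V205M against G1E (4.83% and 3.32% of all tested genes), 0 higher and 15 lower against WT (3.7% and 5.65%), and 4 higher and 3 lower in 2RA against V205M (3.6% and 2.62%). Ermap, with 1611 scaled reads in G1E and 889 in V205M, and Spnb1, with 78.5 and 576, are examples that the rule left out. Megakaryocyte and platelet genes gave P2ry1 and Nfe2 of 31 genes, 6 with all 4 levels. They were 0 higher and 6 lower in V205M against G1E, 0 higher and 3 lower against WT, and 8 higher and 0 lower in 2RA against V205M. Fli1, an ETS factor of megakaryocytes, had 36.4 scaled reads in G1E, 89.4 in WT, 331 in 2RA and 47.6 in V205M and so was not lowest in V205M. Erythroid transcription factors gave Nfe2 of 23 genes, with 3 higher and 6 lower in V205M against G1E, 2 higher and 9 lower against WT, and 6 higher and 2 lower in 2RA against V205M. Erythroid enzymes gave Steap3 of 38 genes, with 10 higher and 7 lower against G1E, 1 and 23 against WT, and 5 and 5 in 2RA against V205M. Immediate early and feedback genes gave Pim1 of 31. Mast cell, cholesterol and fatty acid, cell cycle, cell death, respiratory chain and actin lists gave none, nor did the neutrophil and macrophage, lymphocyte, and endothelial and stromal lists. On these lists Tal1 (erythroid transcription factors), Srgn (mast cell) and Ccnd3 (cell cycle) met every limit of level and fold and were set aside only by name. Srgn, the core protein of granule proteoglycans, had 69.6 scaled reads in G1E, 215 in WT, 1077 in 2RA and 4.15 in V205M. Tal1, a partner of GATA-1 in red cells, had 627, 341, 333 and 111 in the same order.

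All 68 genes were found in RefSeq, 60 by symbol and 8 by an older symbol, as 65 protein-coding genes, 2 pseudogenes and 1 long noncoding RNA. They were spread over 17 chromosomes, with 7 on chromosome 8 and 6 each on chromosomes 2, 4, 11 and 15. For 9 genes a protein-coding gene overlaps on the opposite strand (Col18a1, Gnb4, B2m, Dock2, Glul, Nt5c2, Spns2, 2210020M01Rik and 8430427H17Rik). No source used here says whether counting used the strand, so reads of these pairs cannot be told apart. Of their partners Slc19a1 alone was in a table.

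The limit of the rule cut through a continuous range. Just inside were Rhag (2.01-fold), Rgs10 (2.02-fold) and Glul (2.03-fold), and just outside were Samd14 (2.00-fold, at 118, 299, 218 and 59.2 scaled reads in G1E, WT, 2RA and V205M), 1810031K17Rik (1.98-fold) and Mboat7 (1.95-fold).

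The V205M level is the mean of 2 count columns, and the labels do not say whether they are cultures or sequencing runs of the 1 labelled sample. Because the genes were chosen on that mean, low values in both columns are largely fixed by that choice. Their values describe the spread and support nothing. For Dock2 and Tnfrsf13c the columns of V205M and G1E overlapped. Over the 643 genes of all kinds with 500 or more reads in both V205M columns added together, the log2 ratio of the columns had an SD of 0.102. Over 431 genes chosen likewise from the G1E columns, that of the G1E columns had one of 0.13. For Gpr56 the V205M columns stood at 77.4 and 77.1 scaled reads and the G1E columns at 686 and 697. For Col18a1 the V205M columns stood at 3.44 and 2.003 and the G1E columns at 65.96 and 67.2. For Steap3 the values were 411 and 405 in V205M and 1519.6 and 1184 in G1E.

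**Figure D4:**
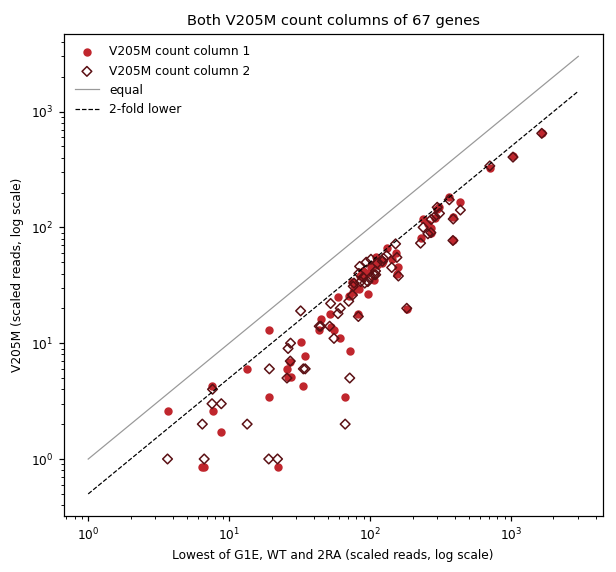
Level in each of the 2 V205M count columns (vertical axis) against the lowest of G1E, WT and 2RA (horizontal axis) for 67 of the 68 genes, both in scaled reads on log axes. All points lie under the grey line of equal levels, most under the dashed line of a 2-fold lower level, and the columns part mainly below 10 scaled reads.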

How the data were processed

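RNA-seq of 4 samples (the G1E control and cells with the WT, 2RA or V205M form, 1 each) was analysed from 6 deposited tables of pairs. The submitters' processing notes name TopHat, Cufflinks, Cuffdiff, deepTools and mm10 without roles. In each table the deposited signal of a group is a mean of counts divided by size factors by the authors, as its values show: whole reads were recovered for 100.0% of the levels within the larger of 3e-11 scaled reads and a relative 2e-13 (6e-10 for a table with rounded values). The lowest count was 1 in every column. Counts under 1 were not allowed in the recovery, and the sources used here do not say whether 1 is a floor. Per the file headers, the tables also give a deposited fold, its log2, a p-value and an adjusted p-value. The headers give neither the kind of adjustment nor the number of tested genes. That number, 12931, is the largest ratio of adjusted p to p, with the adjustment read as Benjamini-Hochberg. It was used for all 6 tables. Tool versions, and the tool behind the tables, were not given in the sources used here.

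Levels were joined by symbol. Log2 differences used a pseudocount of 1 scaled read. The 95% counting intervals are gamma intervals of weighted counts, and those of ratios join the intervals of both levels. They cover counting error only and were tested on simulated counts. No test between groups is used in the report. edgeR 4.0.16 (R 4.3.3) was run as an alternative only, on the count columns. Python 3.11.15, numpy 2.4.6, pandas 2.3.3 and scipy 1.17.1 were used. Coordinates and promoters are RefSeq's on GRCm38.p6, the assembly called mm10, and strands and overlaps are from GENCODE M21. Members and lists were chosen with earlier results of these data known, and roles were assigned after the members were known. Named with levels are the 15 genes with the largest ratio of the lowest other group to V205M, the 10 with the highest level, those on a gene list, the 8 at each end of WT against G1E, the 8 with the largest ratio of 2RA to WT, the 3 on each side of the limit, and others of each role. Of the 68 genes, 1 that this rule names is counted but not reported here, and the figures leave it out.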

Additional observations from a re-analysis of the deposited data

How the results depend on the processing

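Of 68 genes, 26 were left with a 3-fold limit. TMM factors over the genes with all 4 levels left 44, of which 40 were among the 68, and scaling to the total of those genes left 49, of which 43 were. These factors come from genes chosen for their differences, and the cause of the change was not tested. The other 9 settings (level limits of 20 and 100, no floor, no names dropped, another table, each count column alone) gave 56 to 75 genes. The median log2 difference from G1E was -1.57 with a pseudocount of 5 and -1.91 with TMM factors, and that from WT was -1.60 with TMM factors. Of members in the table of 2RA against G1E, 12 passed a 3-fold limit, in place of 20. TMM factors moved the median of all genes by -0.20 for V205M against G1E, 0.46 against WT and 0.21 against 2RA. For Tnfrsf13c the log2 difference of the lowest other group from V205M turned to -0.040 with the first G1E count column alone. No other member changed its direction under the 7 settings tried on single genes. Pseudocounts and TMM factors could not change a direction, since the rule set a distance of 2-fold or more.

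edgeR's quasi-likelihood test on the recovered reads of the 1157 genes, chosen after seeing the data, took its spread from the columns of 2 groups (common BCV 0.0517), which may be runs of 1 sample, so its calls compare these libraries and not the conditions. WT and 2RA, with 1 column each, were assumed to vary alike. At an FDR below 0.01 it called 995 genes for WT against G1E, 862 for 2RA against G1E and 893 for 2RA against WT. Calls among the 68 are not given here. Most of the 1157 genes were called, and their share at an added 2-fold limit was not counted. No paired analysis was possible because each group is 1 sample. Few reads in V205M limit Agpat3, Dock2, Gm3604 and Tnfrsf13c most.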

Other observations

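Another 6 genes met the fold limits in V205M but had a WT level 2-fold or more below the control: Celf2, Cpz, Gpc4, Mfsd2b, Podxl and Ptgir. Podxl, a sialomucin of blood progenitors and vessels, had 1142 scaled reads in G1E, 502 in WT, 848 in 2RA and 163 in V205M. Mfsd2b, an exporter of sphingosine 1-phosphate from red cells and platelets, had 196, 70.5, 82.9 and 24.2 in the same order. Ptgir, the prostacyclin receptor, had 26.2, 11.97, 118 and 3.29, so that 2RA was highest. A further 3 genes with all 4 levels met the fold limits below 50 scaled reads, and 19 genes with V205M at least 2-fold below G1E and WT had no 2RA level in the tables.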
